A study of Mus musculus with 6 samples.

Results

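Clustered histone genes were followed in mouse lung after Cd was given in drinking water. The genes were those whose older symbol begins with Hist1h to Hist4h and that had a probe set of their own, paired with 1 gene symbol, on Affymetrix Mouse Gene ST 2.0 arrays. Of 70 such genes in RefSeq, 69 were on the array, and 30 of the 22180 named genes of the array met this rule. Of the others, 39 were held only by probe sets that several histone genes share, and 1 was on no probe set. The 30 genes were 5 of the linker histone H1, 8 of H2A, 9 of H2B and 8 of H4, and no H3 gene was among them. Where a gene had several probe sets, that with the highest mean over 6 arrays was used.

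Whole lung RNA came from 3 Cd-treated and 3 control male C57Bl6 mice, with 1 array for each biological replicate. Cd-treated mice drank water with 10 mg/L CdCl2 for 20 weeks and control mice drank water without it. All mice entered the study at 8 weeks and were 28 weeks old at the end. Per the study's methods, airway resistance was measured under anesthesia before tissue was taken, in ventilated mice given rising doses of inhaled methacholine. Values are log2 robust multiarray average (RMA) values, in which a difference of 1 is a doubling.

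Histones are the proteins around which DNA is wound. H2A, H2B, H3 and H4 form the core of the nucleosome, and H1 binds the DNA between nucleosomes. Most of the genes studied here have no introns, lie in dense clusters, and are transcribed mainly while a cell copies its DNA. Their mRNAs typically end in a stem-loop in place of a poly(A) tail, which the stem-loop binding protein and the U7 small nuclear ribonucleoprotein help to form. In adult lung, where few cells divide, a low level of these mRNAs is usual. Of the 30 genes, 22 lie on chromosome 13, 5 on chromosome 3, 2 on chromosome 11 and 1 on chromosome 6. Gene lengths ran from 384 to 14079 bases with a median of 491.5, and 3 genes (H2bc21, H2bc22 and H2af-ps2) were longer than 1000 bases. H2af-ps2 and H2bu1-ps are annotated as pseudogenes.

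Promoter motifs differed in frequency between the classes, as a description. RefSeq (GRCm38.p6) held a window for 26 of the 30 genes, from 250 bases before the transcript start to 50 bases after it. H2bc21, H4c14, H2af-ps2 and H2bu1-ps had none. The letters TATAAA and CCAAT, the octamer and the H1 box were searched on both strands, and no 2 matches overlapped in these windows.

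Windows are printed for the gene of each class with the highest mean over the 6 arrays, and for H2bc1, the testis H2B gene whose window overlaps that of the testis H2A gene H2ac1. They lie at chr13:23738557-23738856 on the plus strand for H1f2, at chr11:58954435-58954734 on the plus strand for H2aw, at chr13:23746484-23746783 on the plus strand for H2bc3, at chr13:21750504-21750803 on the minus strand for H4c12 and at chr13:23934107-23934406 on the minus strand for H2bc1. Each is given 5′ to 3′ along its gene, and capitals mark matches to the searched motifs on either strand.
H1f2: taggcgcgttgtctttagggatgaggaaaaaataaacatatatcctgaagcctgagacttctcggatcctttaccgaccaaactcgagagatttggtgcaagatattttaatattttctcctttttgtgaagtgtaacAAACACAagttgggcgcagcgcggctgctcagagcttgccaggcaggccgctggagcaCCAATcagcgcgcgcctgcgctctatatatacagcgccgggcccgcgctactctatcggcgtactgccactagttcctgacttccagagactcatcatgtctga
H2aw: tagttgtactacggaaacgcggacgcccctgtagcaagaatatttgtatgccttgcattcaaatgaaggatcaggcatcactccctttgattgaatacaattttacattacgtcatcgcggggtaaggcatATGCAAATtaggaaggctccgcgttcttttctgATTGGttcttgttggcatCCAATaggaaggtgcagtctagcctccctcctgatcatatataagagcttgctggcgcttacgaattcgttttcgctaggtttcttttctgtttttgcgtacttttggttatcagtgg
H2bc3: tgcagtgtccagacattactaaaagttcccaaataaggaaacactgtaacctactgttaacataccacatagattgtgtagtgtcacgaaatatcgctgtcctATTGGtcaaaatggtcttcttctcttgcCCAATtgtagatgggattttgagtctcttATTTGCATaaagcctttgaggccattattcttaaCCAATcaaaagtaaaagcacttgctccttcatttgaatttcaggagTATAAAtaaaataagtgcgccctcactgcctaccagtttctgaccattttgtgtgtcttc
H4c12: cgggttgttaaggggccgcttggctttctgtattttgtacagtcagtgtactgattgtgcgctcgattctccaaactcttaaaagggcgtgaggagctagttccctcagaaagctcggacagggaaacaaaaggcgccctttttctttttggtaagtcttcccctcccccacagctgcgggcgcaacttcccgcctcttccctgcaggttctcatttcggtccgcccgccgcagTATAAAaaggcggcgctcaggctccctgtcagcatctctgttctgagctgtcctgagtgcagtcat
H2bc1: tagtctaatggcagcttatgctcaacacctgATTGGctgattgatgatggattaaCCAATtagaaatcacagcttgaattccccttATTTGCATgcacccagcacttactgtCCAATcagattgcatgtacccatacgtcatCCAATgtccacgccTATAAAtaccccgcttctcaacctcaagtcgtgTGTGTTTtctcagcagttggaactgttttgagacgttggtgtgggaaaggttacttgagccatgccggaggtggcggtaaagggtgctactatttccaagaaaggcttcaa

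The octamer ATTTGCAT, a motif known from H2B promoters, was found in 4 of 7 H2A windows and 5 of 7 H2B windows, and in 0 of 5 H1 and 0 of 7 H4 windows. It stood in 34.6% of the histone windows, against 1.7% of all 32851 promoter windows. The H1 box AAACACA stood in 4 of 5 H1 windows, in 1 of 7 H2A and 2 of 7 H2B windows and in 0 of 7 H4 windows, and in 7.2% of all windows. CCAAT was present in all 5 H1, all 7 H2A and all 7 H2B windows but in 1 of 7 H4 windows, and 37.4% of all windows held it. The letters TATAAA were found anywhere in 16 of 26 histone windows (61.5%), against 13.6% of all windows, with 3 of 5 in H1, 5 of 7 in H2A, 4 of 7 in H2B and 4 of 7 in H4. Between 20 and 40 bases before the start, where a TATA box usually lies, a match began in 5 of 26 histone windows (19.2%), against 2.5% of all windows. Those were H1f1, H1f3, H1f5, H2ac1 and H2ac21, and none of the printed windows is among them. H2A and H2B genes often lie head to head, and 6 of the 26 windows overlapped that of a histone gene on the other strand. The pair H2ac12 and H2bc12 shared 277 bases and the pair H2ac1 and H2bc1 shared 220 bases, so their motif matches are in part the same bases. Over the 62 windows of all clustered histone genes, the H1 box stood in 14.5%, CCAAT in 85.5% and TATAAA in 56.5%. In the 26 windows these shares were 26.9%, 76.9% and 61.5%. These matches are descriptions of sequence.

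The arrays read as lung. All 9 markers of lung epithelium and endothelium were above the array median on all 6 arrays, with the surfactant gene Sftpc between 11.99 and 12.57. More than 1 array stood apart. The mean of 5 spermatid sex chromosome genes was highest in Cd-treated replicate 3 (8.96) and lowest in control replicate 3 (4.48). Cd-treated replicate 1 was next lowest (5.88) and had the lowest mean of 6 cardiac muscle genes (7.19). Control replicate 3 also had a mean of 8.65 over 7 skeletal muscle genes, against 4.89 to 5.31 on the other arrays. All of those lists were chosen with these data known. Results are therefore also given with both replicates 3 left out, a choice made after the data were seen. Correlations between arrays over the 30 histone genes lay between 0.87 and 0.966, and over all 41345 probe sets between 0.82 and 0.971, where the probes of each array share 1 library. In whole tissue, fewer cells of a type and less RNA per cell cannot be told apart.

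Between Cd-treated and control lungs, 0 of the 30 histone genes passed an unadjusted p under 0.05 by limma's moderated test, and 0 by the methods' t-test. Over all 41345 probe sets limma called 1.05% higher and 0.96% lower in Cd-treated lungs, and the methods' t-test 1.59% higher and 1.04% lower. The smallest p values of histone genes were 0.143 for H4c14, 0.15 for H1f6 and 0.158 for H1f5, and adjusted p values over all probe sets lay between 0.992 and 1. Log2 differences, Cd-treated minus control, ran from -0.34 for H1f5 to 0.72 for H4c14. They were positive for 13 genes and negative for 17, where 11709 of 22180 named genes were negative. The median over the 30 histone genes was -0.07, beside 0.015 over all probe sets and -0.02 over all named genes.

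The precision sets what these arrays could show. Standard errors of the log2 difference lay between 0.171 and 0.509, with a median of 0.281. The 95% interval of limma lay within a doubling in either direction for 24 of the 30 genes. For the other 6 it reached further, and the extremes over all genes were -1.52 for H4c8 and 1.75 for H4c14. A p that misses the threshold therefore does not show that the groups were alike.

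**Figure D1:**
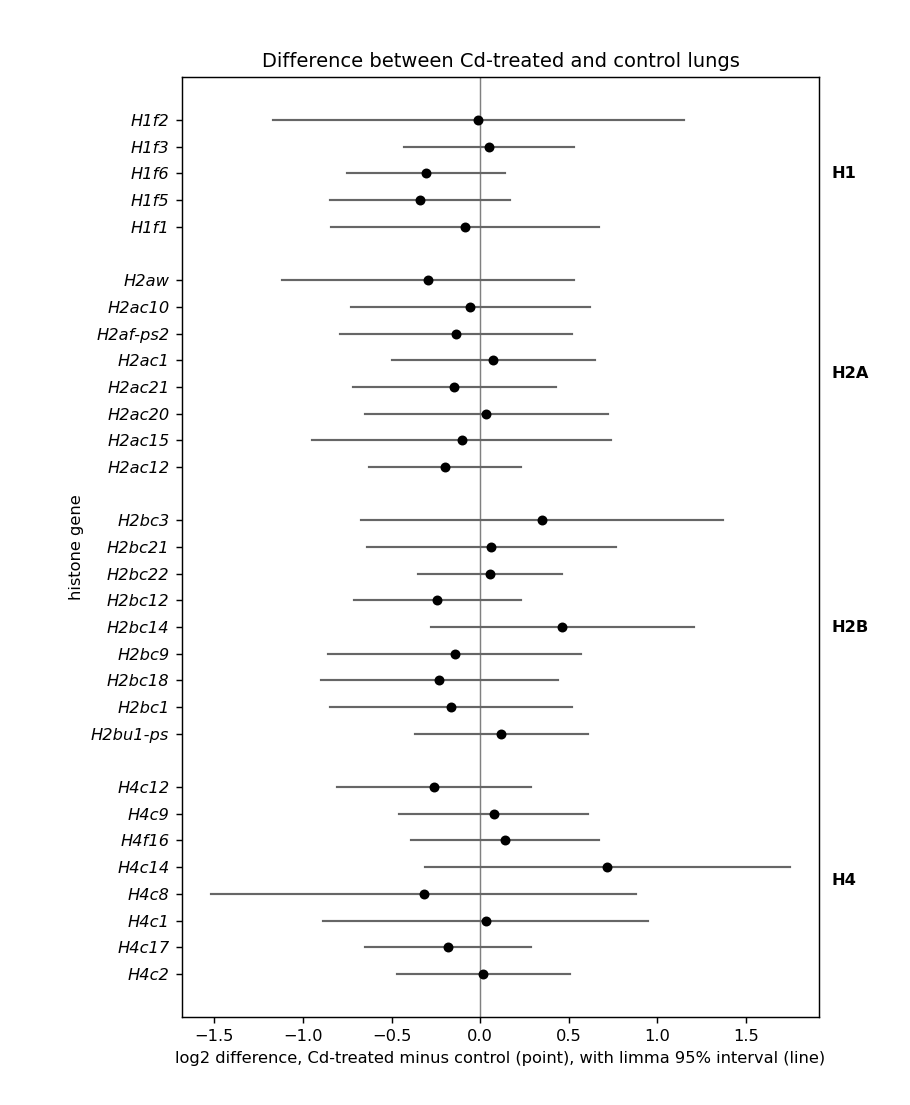
Log2 difference, Cd-treated minus control, for each of the 30 histone genes (points), with its 95% interval from limma (lines), grouped by class. All intervals include 0, and the widest are those of H4c8, H4c14 and H1f2.

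All Cd-treated values were below all control values for 2 of 30 genes, H1f6 and H2ac12, and above them for 0 of 30. Over all probe sets these shares were 3.17% below and 3.83% above. With 3 arrays against 3, the exact permutation test cannot give less than 0.1 (two-sided), which both genes reached.

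Many of the genes read low. On all 6 arrays, 10 of the 30 lay below the array's lower quartile, against 2610 of 22180 named genes, and 4 lay above its median, against 9484 of 22180. The lower quartile of the arrays was between 3.77 and 4.20 and the median between 4.86 and 5.12. No detection call was used here, so a low value can be background. The median standard deviation over the 6 arrays was 0.338 for histone genes and 0.284 for named genes.

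**Figure D2:**
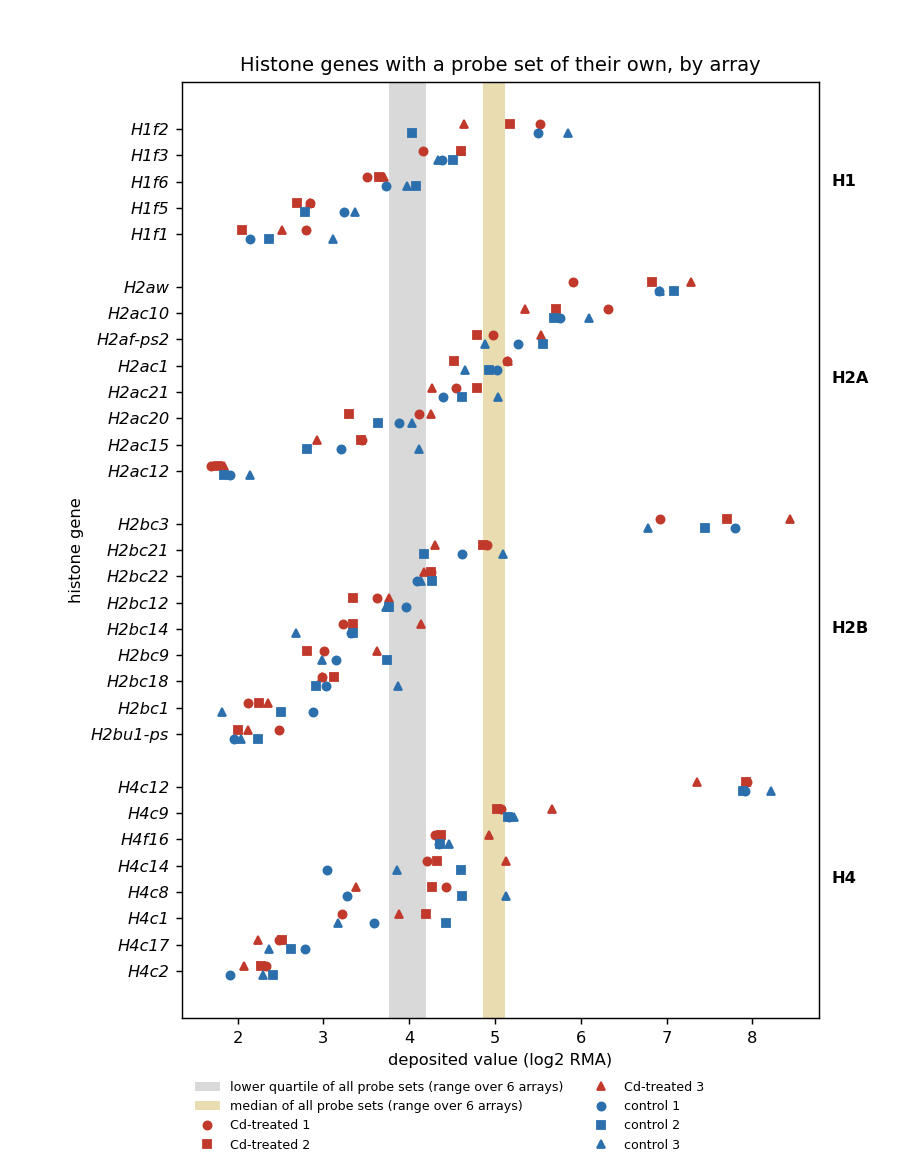
Deposited log2 RMA values of the 30 histone genes on each array, Cd-treated above control within a gene and ordered by class. The grey band is the lower quartile and the yellow band the median of all probe sets over the 6 arrays, and H2aw, H2ac10, H2bc3 and H4c12 lie right of the yellow band on every array.

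Among the linker histones, H1f6 encodes the testis linker histone H1t, made in spermatocytes, and had the smallest p of its class. It read 3.51, 3.65 and 3.71 in Cd-treated lungs, against 3.73, 4.08 and 3.98 in control lungs. Every Cd-treated value was below every control value, and the log2 difference was -0.30 (standard error 0.188, adjusted p = 0.992 from limma). On 5 of the 6 arrays H1f6 lay below the array's lower quartile, so its values can be background. H1f5, a replication-dependent linker histone, read 2.85, 2.69 and 2.85 in Cd-treated lungs, against 3.24, 2.79 and 3.37 in control lungs. Here the groups overlapped at control replicate 2, with a difference of -0.34 (standard error 0.215), and H1f5 lay below the lower quartile on all 6 arrays.

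H1f2, a linker histone of which polyadenylated transcripts are also known, was the most variable H1 gene. It read 5.53, 5.17 and 4.64 in Cd-treated lungs, against 5.50, 4.03 and 5.85 in control lungs. The control lungs alone spanned the whole range, with a mean of 5.11 ± 0.45 in Cd-treated lungs and 5.13 ± 0.97 in control lungs (SD, n = 3 each). H1f3 read 4.16, 4.61 and 4.61 in Cd-treated lungs, against 4.38, 4.51 and 4.34 in control lungs. H1f1, the remaining linker gene, lay between 2.05 and 2.80 in Cd-treated lungs and between 2.15 and 3.11 in control lungs. The median log2 difference over the 5 H1 genes was -0.09.

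Among H2A genes, H2aw and H2ac10 were above the array median throughout. H2aw lies outside the main cluster, on chromosome 11, and read 5.91, 6.83 and 7.28 in Cd-treated lungs, against 6.91, 7.09 and 6.92 in control lungs. The Cd-treated lungs spread on both sides of the 3 close control values, with a mean of 6.68 ± 0.70 in Cd-treated and 6.97 ± 0.10 in control lungs (SD, n = 3 each). Without Cd-treated replicate 1 its log2 difference of -0.30 turned to 0.085. H2ac10 read 6.32, 5.71 and 5.35 in Cd-treated lungs, against 5.76, 5.69 and 6.10 in control lungs, so that its highest and lowest values were both in Cd-treated lungs.

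H2ac12, from the head-to-head pair with H2bc12, read 1.69, 1.77 and 1.84 in Cd-treated lungs, against 1.91, 1.84 and 2.15 in control lungs. To 2 decimals the highest Cd-treated and the lowest control value are alike, and all of them are below the lower quartile of their array. H2ac1 encodes the testis H2A, and read 5.14, 4.52 and 5.15 in Cd-treated lungs, against 5.02, 4.93 and 4.65 in control lungs. Its groups overlapped, with a difference of 0.07. The other 4 H2A genes had differences of -0.15 (H2ac21), -0.14 (H2af-ps2), -0.10 (H2ac15) and 0.03 (H2ac20), and the median over the 8 was -0.12.

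Among the H2B genes, H2bc3 and H2bc14 shared their extreme arrays. H2bc3, a replication-dependent gene, read 6.92, 7.71 and 8.44 in Cd-treated lungs, against 7.80, 7.45 and 6.78 in control lungs. Its highest value was in Cd-treated replicate 3 and its lowest in control replicate 3, with a log2 difference of 0.35 (standard error 0.432). H2bc14 had the same extremes and read 3.23, 3.35 and 4.14 in Cd-treated lungs, against 3.32, 3.34 and 2.68 in control lungs. Its difference was 0.46 (standard error 0.315). H2bc14 lay below the array's lower quartile on all 6 arrays, where H2bc3 lay above the median on all 6. That lower quartile had the same extremes, at 3.92, 4.06 and 4.20 in Cd-treated lungs, against 4.03, 4.09 and 3.77 in control lungs. Without both replicates 3, the differences were -0.30 for H2bc3 and -0.04 for H2bc14.

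A list of 5 spermatid sex chromosome genes was read beside them. These are multicopy genes that act in sperm formation (Sly, Srsy, Srsx, Slx and Astx5), and their mean was 5.88, 7.65 and 8.96 in Cd-treated lungs, against 7.65, 7.56 and 4.48 in control lungs. Both the list and H2bc3 were highest in Cd-treated replicate 3, lowest in control replicate 3 and next lowest in Cd-treated replicate 1. The order was not particular to that list. The median of all 41345 probe sets was 4.99, 5.06 and 5.12 in Cd-treated lungs, against 5.05, 5.08 and 4.86 in control lungs, and the mean of 1105 olfactory receptors was 3.49, 3.82 and 3.96 in Cd-treated lungs, against 3.81, 3.81 and 3.24 in control lungs, with the same highest, lowest and next lowest arrays. The part of these differences between arrays in the H2B values was not tested. Having Cd-treated replicate 3 highest and control replicate 3 lowest was seen in 6.67% of the histone genes and in 12.36% of named genes.

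H2bc21, known in mouse as the olfactory neuron variant H2be, read 4.91, 4.86 and 4.30 in Cd-treated lungs, against 4.62, 4.17 and 5.09 in control lungs. Its groups overlapped throughout, with a difference of 0.06. H2bc12 read 3.63, 3.34 and 3.76 in Cd-treated lungs, against 3.96, 3.76 and 3.73 in control lungs, a difference of -0.24 (standard error 0.198). H2bc1, the testis H2B, read 2.12, 2.25 and 2.35 in Cd-treated lungs and 2.88, 2.51 and 1.82 in control lungs, so the control values lay on both sides. The remaining 4 H2B genes had differences between -0.23 (H2bc18) and 0.12 (H2bu1-ps), and the median over the 9 was 0.06. That median was -0.04 after cyclic loess, -0.04 after quantile normalization and -0.005 after median centring.

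Among the H4 genes, H4c12 read 7.94, 7.93 and 7.36 in Cd-treated lungs, against 7.92, 7.89 and 8.22 in control lungs. The lowest value was in Cd-treated replicate 3 and the highest in control replicate 3, which is the reverse of H2bc3, and the other 4 arrays lay between 7.89 and 7.94. Its log2 difference of -0.26 (standard error 0.233) was 0.04 without both replicates 3. H2ac21 had these extremes too, at 4.55, 4.79 and 4.27 in Cd-treated lungs, against 4.40, 4.62 and 5.04 in control lungs. Of named genes 16.74% were highest in control replicate 3 and lowest in Cd-treated replicate 3, beside 6.67% of the histone genes.

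**Figure D3:**
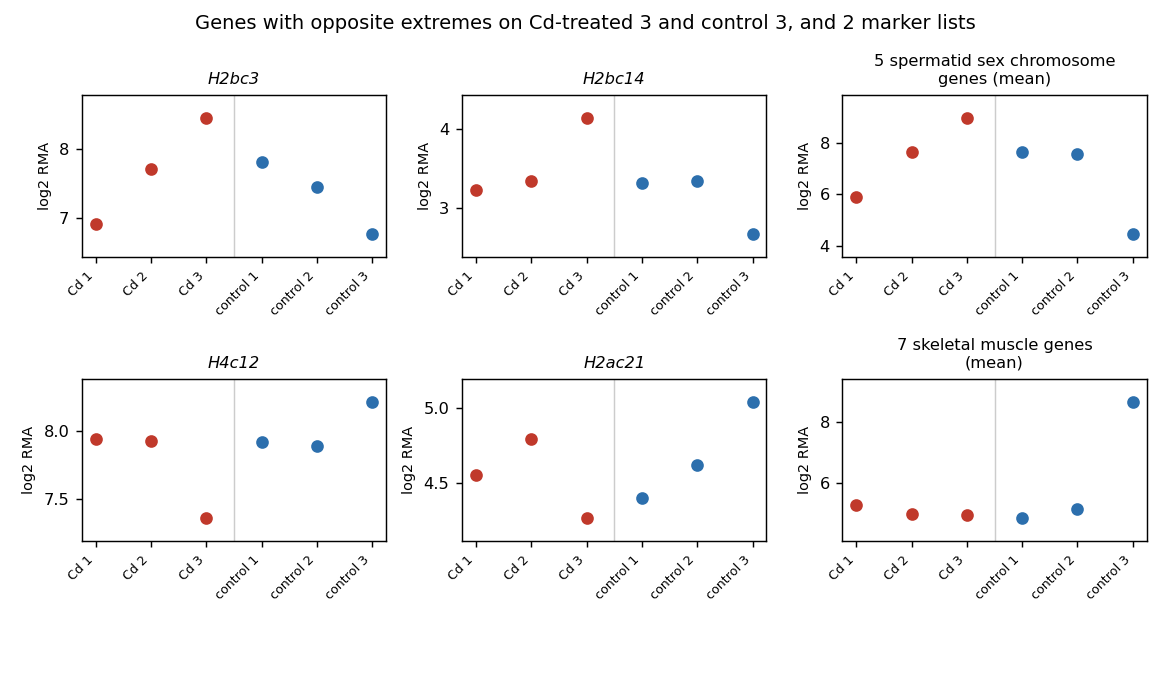
Log2 RMA values on each array for H2bc3, H2bc14, H4c12 and H2ac21 and, on their own axes, the means of 5 spermatid sex chromosome genes and 7 skeletal muscle genes. The histone genes shown were picked for their extremes. H2bc3 and H2bc14 peak in Cd-treated replicate 3, as does the spermatid list, and H2bc14 lies below the lower quartile of every array. H4c12 and H2ac21 peak in control replicate 3, where the muscle list reads 8.65. Each pattern of extremes was seen in 6.67% of the histone genes, against 12.36% and 16.74% of named genes.

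H4c14 and H4c8 were the most variable histone genes. H4c14, in the cluster on chromosome 3, read 4.21, 4.32 and 5.13 in Cd-treated lungs, against 3.04, 4.60 and 3.86 in control lungs. It had the highest log2 difference, 0.72 (standard error 0.436), with an overlap at control replicate 2. It rested on single arrays. Leaving out control replicate 1 gave 0.32 and leaving out Cd-treated replicate 3 gave 0.43, neither called by limma, and leaving out control replicate 2 gave 1.10. Without that array the unadjusted p from limma was 0.0305. H4c8 read 4.43, 4.27 and 3.38 in Cd-treated lungs, against 3.28, 4.62 and 5.13 in control lungs. The lowest value was in a control lung and so was the highest, and the difference was -0.32 (standard error 0.509).

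H4c9 read 5.07, 5.02 and 5.67 in Cd-treated lungs, against 5.16, 5.15 and 5.22 in control lungs, with Cd-treated replicate 3 above the others. H4f16, which stands alone on chromosome 6, had the same pattern at 4.30, 4.37 and 4.93 in Cd-treated lungs, against 4.35, 4.36 and 4.46 in control lungs. Its second probe set instead spread from 2.73 to 4.55 in Cd-treated lungs and from 2.81 to 4.44 in control lungs, with a difference of -0.29 where the first gave 0.14. The other 3 H4 genes had differences of 0.03 (H4c1), 0.02 (H4c2) and -0.18 (H4c17), and the median over the 8 was 0.03. It was -0.02 after quantile normalization and -0.04 after median centring, so that neither the H2B nor the H4 genes had a direction that held.

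Taken by array, the median of the 30 genes was 4.14, 4.22 and 4.16 in Cd-treated lungs, against 3.80, 4.12 and 4.07 in control lungs. The mean of the same genes was 4.08, 4.06 and 4.18 in Cd-treated lungs, against 4.07, 4.15 and 4.21 in control lungs. Control replicate 1 had the lowest median, but its mean was like that of the other arrays. Control replicate 3 was the highest array for 10 genes and Cd-treated replicate 3 for 8. The same arrays were highest for 34.3% and 23.4% of named genes, beside 33.3% and 26.7% of the histone genes. Of the H1 genes, 3 of 5 were highest in control replicate 3. The median of 74 small nucleolar RNAs, another group of short transcripts without poly(A) tails, was 5.35, 4.89 and 5.13 in Cd-treated lungs, against 4.94, 5.24 and 5.15 in control lungs.

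Probe sets shared by several histone genes added H3 and the genes without a probe set of their own. There were 35 such sets with distinct values, named after their values were seen, and up to 13 gene symbols stood on 1 of them, so that a value cannot be given to 1 gene. By limma 0 of 35 were called at an unadjusted p under 0.05, and the median log2 difference was -0.07. A set of H2bc4, H2bc6 and H2bc8 read 8.68, 8.59 and 7.97 in Cd-treated lungs, against 8.62, 8.37 and 9.23 in control lungs. A second set of these 3 genes read 4.22, 3.83 and 3.75 in Cd-treated lungs, against 4.23, 4.22 and 5.04 in control lungs. Its difference was -0.56 (standard error 0.284). All its Cd-treated values were below its control values, though alike to 2 decimals where they met. This was so for 1 of the 35 sets, beside 3.17% of all probe sets. As for H4c12, both sets were lowest in Cd-treated replicate 3 and highest in control replicate 3, a pattern of 5 of the 35 sets. Sets listing H2bc7, H2bc11, H2bc13 and H2bc15 did not share 1 pattern. A set of these genes read 5.68, 5.99 and 6.51 in Cd-treated lungs, against 6.09, 5.93 and 5.49 in control lungs, with the extremes of H2bc3. A further set had these extremes too, at 2.59, 3.02 and 3.69 in Cd-treated lungs, against 3.22, 3.11 and 2.54 in control lungs. It lay below the array's lower quartile on all 6 arrays. Another read 8.11, 8.19 and 8.59 in Cd-treated lungs, against 8.24, 8.23 and 8.62 in control lungs, where control replicate 3 was the highest array and the difference was -0.07. The extremes of H2bc3 were found in 2 of the 35 sets (5.71%), the 2 given here for the same genes, beside 12.36% of named genes.

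H3 genes were found only there, in 12 sets with a median log2 difference of 0.01. The largest difference among them, -0.78 (standard error 0.365), came from a set of 8 H3 genes that read 4.43, 5 and 4.49 in Cd-treated lungs, against 5.09, 4.96 and 6.20 in control lungs. Control replicate 3 was the highest array, and the groups overlapped. Other sets listing the same 8 genes had differences between -0.47 and 0.15. Of the shared sets of H2A, H2B and H4 the medians were -0.09 (9 sets), -0.09 (8 sets) and -0.08 (5 sets).

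**Figure D4:**
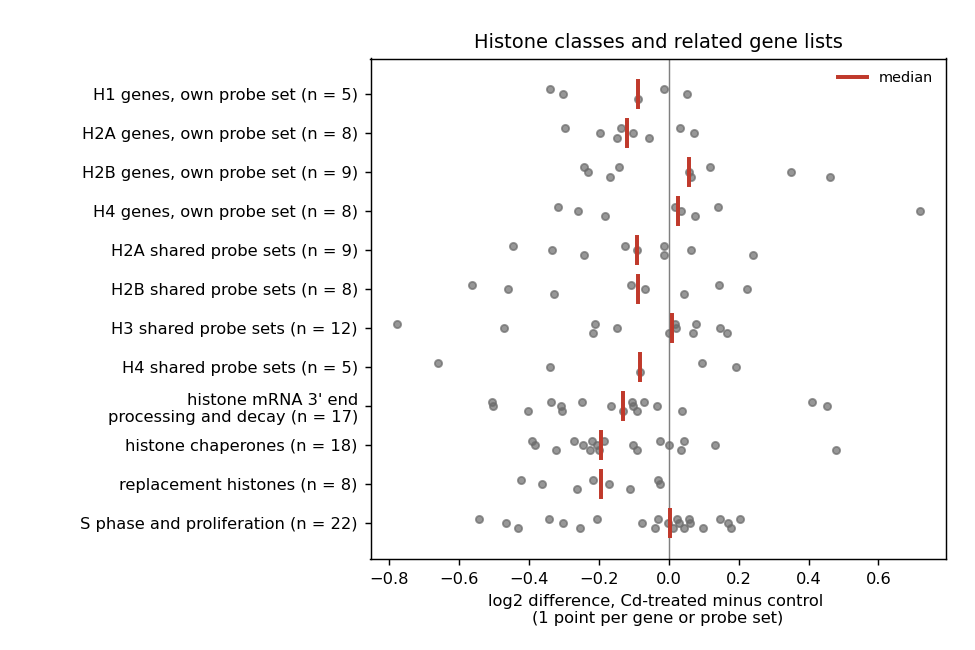
Log2 differences, Cd-treated minus control, of histone genes by class, of shared histone probe sets and of 4 related gene lists. Points are genes or probe sets and red bars are medians, which lie between -0.20 and 0.06.

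Genes that make, carry and replace these histones were set beside them. Of 17 measured genes of histone mRNA 3′ end processing and decay, 0 were called by limma at an unadjusted p under 0.05. The log2 difference was negative for 14 of them and positive for 3, with a median of -0.13. Among all named genes it was negative for 11709 of 22180. Genes of a list can vary together between arrays, so these sign counts are not counts of independent results. Zfp473, a zinc finger protein of the U7 particle, had 0.45 and Ncbp1, a cap-binding protein, -0.50, the smallest p values of that list (0.105 and 0.112 from limma). The stem-loop binding protein gene Slbp had -0.25. Of 18 histone chaperones 0 were called, 13 negative and 5 positive, with a median of -0.19. The chromatin assembly factor subunit Chaf1a had 0.48 and Ubn1, of the HIRA complex, -0.39.

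Of 11 replacement histones, made also outside DNA replication, 8 were measured, and H3f3a, H3f3b and H1f0 were not. Of the 8 measured genes 0 were called by limma, all had negative differences, and the median was -0.20. H2ax, the variant phosphorylated at DNA breaks, had -0.42 and the centromere variant Cenpa -0.36. Without both replicates 3 the medians of these 3 lists turned positive, to 0.13 for processing, 0.14 for chaperones and 0.01 for replacement histones. Of 22 genes of S phase and proliferation 0 were called, 11 each way, with a median of 0.00. Top2a, the topoisomerase of dividing cells, read 4.19, 4.28 and 4.44 in Cd-treated lungs, against 4.59, 4.59 and 5.36 in control lungs. All its Cd-treated values were below its control values, with a difference of -0.54 (standard error 0.26). Rrm2, a subunit of ribonucleotide reductase, had -0.47 and overlapped between the groups.

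Markers of other cells were read beside the histones. Of 7 measured lymphocyte markers 0 were called by limma, with a median log2 difference of -0.27, which was -0.07 after cyclic loess and -0.03 without both replicates 3, and lay between -0.36 and -0.08 with each array left out in turn. Of 4 red cell and platelet markers 0 were called, with a median of 0.30 that was 0.085 without Cd-treated replicate 1. The 6 cardiac muscle genes were listed with these data known, so their count is not a test of enrichment. Their adjusted p values from limma were all 0.992. Without adjustment, limma called 4 of 6 lower after Cd (p under 0.05), beside 0.96% of all probe sets, and the median over the 6 was -1.003. The count was 1 of 6 by the methods' t-test, with the replicate number as a block, after cyclic loess, without Cd-treated replicate 1 (median -0.607) and without control replicate 1, and 2 of 6 without Cd-treated replicate 3. The part of cell composition in the histone values was not tested.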

How the data were processed

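Lung RNA of 3 Cd-treated and 3 control mice was amplified with a NuGEN Ovation kit, and each sample had its own Mouse Gene ST 2.0 array. The deposited values are log2 RMA values, which the authors made from scanner files with the R package oligo, by background correction, quantile normalization and median polish. RMA and limma are named in the submitters' processing notes without versions. The genome build behind the values is not given in the sources used here. The number of arrays limits the precision.

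Gene symbols came from the array annotation, which uses current names, so that 0 symbols began with Hist. The older symbols were reached through gene numbers and the synonyms of the RefSeq table. Of 23521 probe sets with 1 symbol, 23328 had a gene number in that table. The members and lists were chosen with earlier results of these data known. Groups were compared in R 4.3.3 with limma 3.58.1, on the group alone over all 41345 probe sets with Benjamini-Hochberg adjustment, with 3.06 prior degrees of freedom. No filter was applied. The labels call the arrays biological replicates. The steps were tested on simulated data.

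Genes named in the text were, in each class, the 2 with the highest mean, the 2 with the smallest p and the 1 with the largest standard deviation. Germ line and polyadenylated genes, H2aw and H4f16, and up to 2 genes of each other pathway list were named as well. Slbp, H1f1, H2ac21, the second H4f16 probe set, the spermatid genes and the shared probe sets were named outside that rule. So were the genes given only by their differences and the replacement histones not measured. Of shared sets with identical values 1 was kept. A list of ribosomal protein genes was not used here, because its name pattern also took in kinases. Alternatives were array weights, the replicate number as a block, the methods' t-test, another prior (trended and robust), median centring, cyclic loess, a further quantile normalization, a filter on low values, averaging the probe sets of a gene, and leaving out each array.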

Additional observations from a re-analysis of the deposited data

How the results depend on the processing

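No histone gene was called at an unadjusted p under 0.05 by limma, by the methods' t-test, by the trended and robust prior, after cyclic loess, quantile normalization again or median centring, with the replicate block or with both replicates 3 left out. Leaving out each array gave 0 to 1 histone genes, where H4c14 was called without control replicate 2. Array weights called 11 of 30 (4 higher, 7 lower) and 10119 of all probe sets, against 831. These weights ran from 0.23 for control replicate 3 to 6.41 for Cd-treated replicate 2 and 5.93 for control replicate 1, so that the fit rested largely on 1 array of each group. Under them H2ac1 had -0.40 and H4c8 0.76, opposite in sign to the unweighted fit, and the median of 3 germ line histones was -0.40, against -0.17.

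Over all probe sets the count was 449 with the replicate number as a block, 300 of 20672 with a filter on low values, and between 607 and 1650 with each array left out (1381 without Cd-treated replicate 1 and 1650 without control replicate 2). Replicate numbers gave no sign of pairing, but correlations over 3 samples a group cannot exclude it. Deviations from the group means correlated at -0.49, 0.07 and -0.51 between samples of the same number, and the replicate block called 0 histone genes.

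With each array left out, the median log2 difference lay between -0.125 and 0.054 for the 30 genes (0.054 without control replicate 3), between -0.281 and 0.016 for H1, between -0.16 and -0.003 for H2A, between -0.046 and 0.082 for H2B, between -0.092 and 0.092 for H4, and between -0.279 and 0.069 for the germ line histones. H2B was also negative after all 3 rescalings and H4 after quantile normalization and median centring. Without control replicate 3, replacement histones had 0.013 and chaperones 0.041. H2A had -0.19 after quantile normalization and -0.18 after median centring, against -0.12. With the filter on low values 1 H2B gene remained, at 0.35. Leaving out both replicates 3 gave -0.32 for the germ line histones and 0.13 for 3′ end processing and decay, and the sign of the difference changed for 10 of the 18 histone genes named by rule, none of them called. The cause of these shifts was not tested.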
